A study of Mus musculus with 16 samples.

Results

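Thymus RNA of EMP3 mutant mice was compared with thymus RNA pooled from wild-type mice on 2-colour microarrays. The comparison rests on 6 of the 16 arrays in the series, which are the dye-swapped pairs of mutant mice 1, 3 and 4. Of the other arrays, 8 hold spleen RNA of the same 4 mutant mice, and 2 hold thymus RNA of mouse 2. The mouse 2 thymus arrays were left out because they mirror each other: 83.5% of their probes summed to within 0.01 of the median sum, against 2.76% to 5.80% in mice 1, 3 and 4. All animals were 17-week-old males. Each array carried RNA of a single EMP3 mutant mouse against 1 wild-type pool of the same organ, made from 4 mice by the channel labels and from 6 by the labelling protocol. No source used here gives the allele, the strain or the effect of the mutation on the Emp3 transcript. The series title names brain in place of spleen, and the sample labels were followed. The 3 mice are separate animals, while the 2 arrays of a mouse are technical replicates.

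EMP3, epithelial membrane protein 3, belongs to the small family of tetraspan membrane proteins around PMP22, whose best known member is a component of peripheral myelin. Its relatives EMP1 and EMP2 sit in the membranes of many epithelial and blood cells. The thymus is the organ in which T cells mature: thymocytes that carry both CD4 and CD8 make up most of its cells, and a network of epithelial cells selects those with a useful receptor. Most thymocytes die by apoptosis during that selection.

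The 6 arrays gave a value for 20312 to 20639 of 20794 probes, with array medians between -0.01 and 0.04. The values are ratios, so that neither the level of a thymocyte marker nor the cell makeup of the organ could be checked from them. A lower ratio may stand for fewer cells of a type or for less RNA in each cell, and these data do not tell them apart. The ratios had been stored to 3 decimals before the logarithm was taken: on each of the 6 arrays values piled up at ratios of small whole numbers after an offset of the array, and the step from a ratio of 0.333 to 1 was 1.586 to 1.587, while that from 1 to 3 was 1.585. Those steps fix the logarithm as log2. The stored ratios 0.167 and 6 are not mirror images, which can show whether the sign had been turned on the arrays with mutant RNA in Cy3. On the Cy3 arrays of mice 1, 3 and 4, 3, 2 and 2 values lay where they fall if it had been turned. On each of them 0 lay where they fall if it had not. The Cy5 arrays do not bear on this. The ratios were therefore read as already turned to 1 direction. Which RNA is the numerator is stated nowhere; the wording of the design makes the mutant the likely one, and positive values are described here as higher in the mutant.

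Mouse 1 stood apart in this respect. On its arrays 11.3% (mutant in Cy5) and 10.3% (mutant in Cy3) of the values lay at a ratio of whole numbers from 1 to 5, against 2.40% to 3.06% on the 4 arrays of mice 3 and 4. The ratio of exactly 1 alone held 757 and 1121 values on the mouse 1 arrays and 48 to 57 on the others. The SD of the log2 ratio over probes was 0.43 and 0.32 on the arrays of mouse 1 and 0.23 to 0.29 on those of mice 3 and 4. Named probes with values at such ratios are pointed out below.

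**Figure D1:**
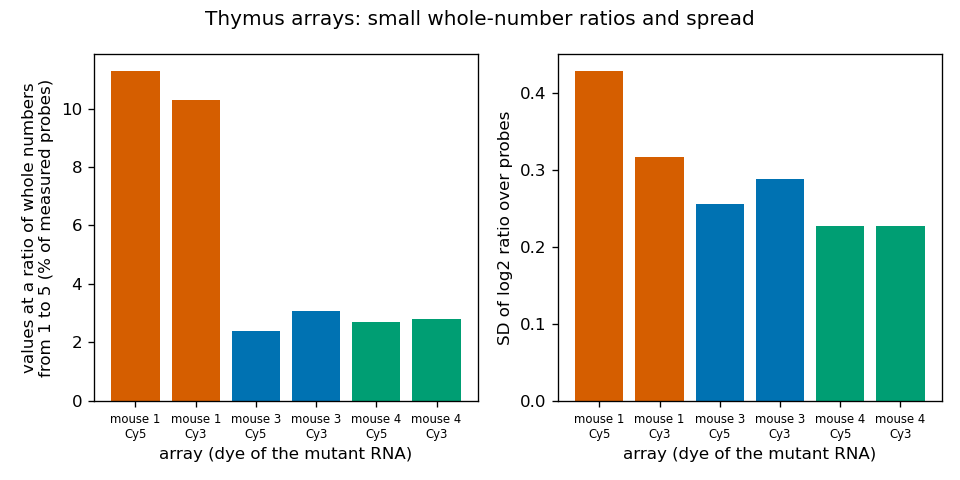
Each bar is 1 of the 6 thymus arrays, by mouse and by the dye of the mutant RNA; the left panel gives the percent of measured probes whose value lies at a ratio of whole numbers from 1 to 5, and the right panel the SD of the log2 ratio over probes. Both arrays of mouse 1 lie above 10% in the left panel, and the arrays of mice 3 and 4 lie between 2.40% and 3.06%.

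Emp3 itself is represented by 2 probes. At probe 4348 the log2 ratio was -0.10 and -0.21 on the Cy5 and Cy3 arrays of mouse 1, -0.03 and 0.06 on those of mouse 3, and 0.08 and -0.06 on those of mouse 4, a mean of -0.04 ± 0.10 (SD, n = 3 mice; 95% interval -0.18 to 0.09; limma adjusted p = 0.886). At probe 11822 the values in the same order were 0.04, -0.01, -0.02, 0.24, 0.03 and 0.05, a mean of 0.05 ± 0.05 (SD, n = 3; 95% interval -0.06 to 0.17; limma adjusted p = 0.866). Over the 6 arrays the values of each probe lay on both sides of 0; both arrays of mouse 1 were below 0 at the first probe, and both arrays of mouse 4 were above 0 at the second. Since the files do not say what the mutation does to the transcript, or which part of it the probes cover, these values check no label.

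The relatives of Emp3 lay as close to 0. Emp2 was at 0.05 ± 0.19 and -0.06 ± 0.21 (SD, n = 3) at its 2 probes, and in both the sign of mouse 1 was opposite to that of mouse 4. Pmp22 was at -0.02 ± 0.05 (SD, n = 3), with arrays of mouse 1 at 0.37 and -0.34, which cancel in the mean of the mouse. The annotation has no probe for Emp1. Of the 8 genes of the family list 6 were tested, 3 of them above 0 and 3 below, and their median was 0.001. The lens membrane protein gene Lim2 was at 0.23 in mouse 1, and at -0.07 and -0.05 in mice 3 and 4. The p53 target Perp was at 0.03 ± 0.04 (SD, n = 3).

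Across the array, 0 of 20130 probes tested passed the threshold of an adjusted p of 0.05 (0% called). By the same limma test 725 probes had an unadjusted p under 0.05, fewer than the 1006.5 that uniform p-values would give, and the smallest adjusted p was 0.866. On gene means 0 of 8834 genes passed (0% called), with 376 at an unadjusted p under 0.05. The means over the 3 mice were small: their SD over probes was 0.08 on the log2 scale, 25 probes exceeded 0.5 in size and 1 exceeded 1. The median SD between mice, 0.09, was of the same size. How far the test reaches is given by the 95% intervals, which lay wholly within a 1.5-fold change for 19847 probes (98.6%) and within a 2-fold change for 20077 (99.7%). The count was 0 under each alternative listed in the closing section except without mouse 1, where 1 probe without a gene name passed (probe 7147, mean -1.32 over mice 3 and 4, limma adjusted p = 0.0434). That probe had no value on either array of mouse 1, its Cy5 arrays were at -0.16 and 0.28 and its Cy3 arrays at -2.38 and -3.02.

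The array values were larger than the means, and they tended to turn with the dye. How much of the difference in size comes from the dye was not tested. Arrays of different mice with the mutant in the same dye correlated at 0.14 to 0.39 over probes, those with dyes exchanged at -0.32 to -0.14, and the 2 arrays of a mouse at -0.44 to -0.25. Probes are not independent replicates, and these correlations describe the arrays. Over the 20130 probes the mean of the 3 Cy5 arrays and the mean of the 3 Cy3 arrays correlated at -0.51. Of the same probes, 407 probes (2.02%) had 1 sign on all 6 arrays, 241 above 0 and 166 below, while at 2995 (14.9%) the sign followed the dye on all 6. Reading the Cy3 arrays with the opposite sign also left 0 of 20130 probes called (0%), with 2164 at an unadjusted p under 0.05 and a smallest limma adjusted p of 0.166. With only 2 mice the opposite reading gave 32 calls without mouse 1, 264 without mouse 3 and 31 without mouse 4.

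**Figure D2:**
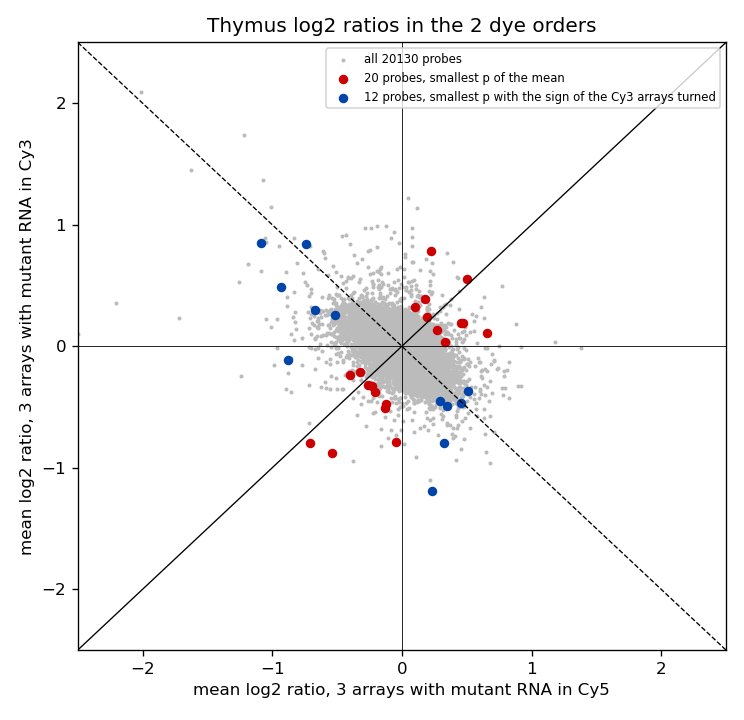
Each grey point is 1 of 20130 probes, placed by its mean log2 ratio on the 3 arrays with mutant RNA in Cy5 (x axis) and on the 3 arrays with mutant RNA in Cy3 (y axis); the solid line marks equal values and the dashed line values of opposite sign, and 1 probe lies outside the axes. The cloud stretches along the dashed line (r = -0.51). The 20 probes with the smallest p of the mean lie where both means have 1 sign, and Pex6, Zfand3 and Txlna lie farthest from the solid line. Most of the 12 chosen with the Cy3 sign turned lie along the dashed line.

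Of the 12 probes chosen with the Cy3 sign turned, that of the homeobox gene Tlx2 had the value largest in size under that reading and the smallest p. It was at -1.03, -1.22 and -1.02 on the Cy5 arrays of mice 1, 3 and 4 and at 1.07, 0.62 and 0.86 on their Cy3 arrays. Its mean over the mice was -0.12 ± 0.17 (SD, n = 3), so the values cancel almost wholly. The coenzyme Q methyltransferase gene Coq3 was at -1.50, -1.12 and -0.18 on the Cy5 arrays and at 0.26, 0.51 and 0.69 on the Cy3 arrays. Faim2, which encodes an inhibitor of Fas-mediated death, was at -1.25, -0.41 and -0.57 on the Cy5 arrays and at 1.01, 1.05 and 0.45 on the Cy3 arrays, with a mean of 0.05 ± 0.24 (SD, n = 3). In the other direction the probes of Cyfip2, a subunit of the WAVE actin complex, Tbc1d22a, Gga1, a sorting adaptor of the trans-Golgi, and the Wnt ligand gene Wnt7a were above 0 on all 3 Cy5 arrays and below 0 on all 3 Cy3 arrays, with the Cy3 value of Wnt7a in mouse 1 at a small whole-number ratio. Sfxn1, a mitochondrial serine carrier, and the telomere helicase gene Rtel1 were below 0 on both arrays of mouse 1, and 3 of the 6 values of Rtel1, both of mouse 1 among them, lay at such a ratio. The remaining probes of this choice were Mov10l1, a helicase of the germ line, and Alg5, a glucosyltransferase of protein glycosylation, which followed the dye on all 6 arrays, and Ica1, which was below 0 on both arrays of mouse 1 and had 2 values at such a ratio. Under the opposite reading the 6 probes chosen above 0 lay between 0.37 and 0.71 and the 6 chosen below 0 between -0.97 and -0.38, and none passed the limma test at 3 mice (smallest adjusted p = 0.166).

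Among the probes with the smallest p of the mean, the lowest means belonged to Lgi4 and Ngb, both genes of the nervous system. Lgi4, a ligand secreted by Schwann cells that peripheral myelination needs, was at -0.41 and -0.53 on the arrays of mouse 1, -0.70 and -0.82 on those of mouse 3, and -1.01 and -1.04 on those of mouse 4. All 6 arrays were below 0, the 2 dye orders of a mouse lay close to each other, and the mice did not overlap. The mean was -0.75 ± 0.28 (SD, n = 3; 95% interval -1.02 to -0.49; limma adjusted p = 0.866), and no value lay at a small whole-number ratio. On the mouse 2 arrays that were left out the same probe was at -1.25 with the mutant in Cy5 and at 1.31 in Cy3.

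Ngb, the globin of neurons, was at 0.01 and -0.70 on the arrays of mouse 1, -0.72 and -0.76 on those of mouse 3, and -0.92 and -1.18 on those of mouse 4. Mouse 4 was the lowest and mouse 1 the highest, as for Lgi4, and the single value near 0 lay at a small whole-number ratio. The mean was -0.71 ± 0.35 (SD, n = 3; 95% interval -1.03 to -0.39; limma adjusted p = 0.866).

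In spleen the probes of the 2 genes were at similar values in each mouse. Lgi4 was at -0.53, -1.10, -1.02 and -1.02 in spleen of mice 1 to 4, and Ngb at -0.55, -1.05, -1.12 and -0.92. Mouse 1 again had the value nearest to 0. The spleen means were -0.92 ± 0.26 and -0.91 ± 0.25 (SD, n = 4), and both passed the threshold there (limma adjusted p = 0.00309 and 0.00307). Thymus minus spleen was 0.16 with a standard error of 0.17 for Lgi4 and 0.20 with a standard error of 0.19 for Ngb, and neither difference passed (limma adjusted p = 0.561 and 0.516). Both tissues were set against pools of the same wild-type mice, so the tissues are not independent evidence of a direction.

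**Figure D3:**
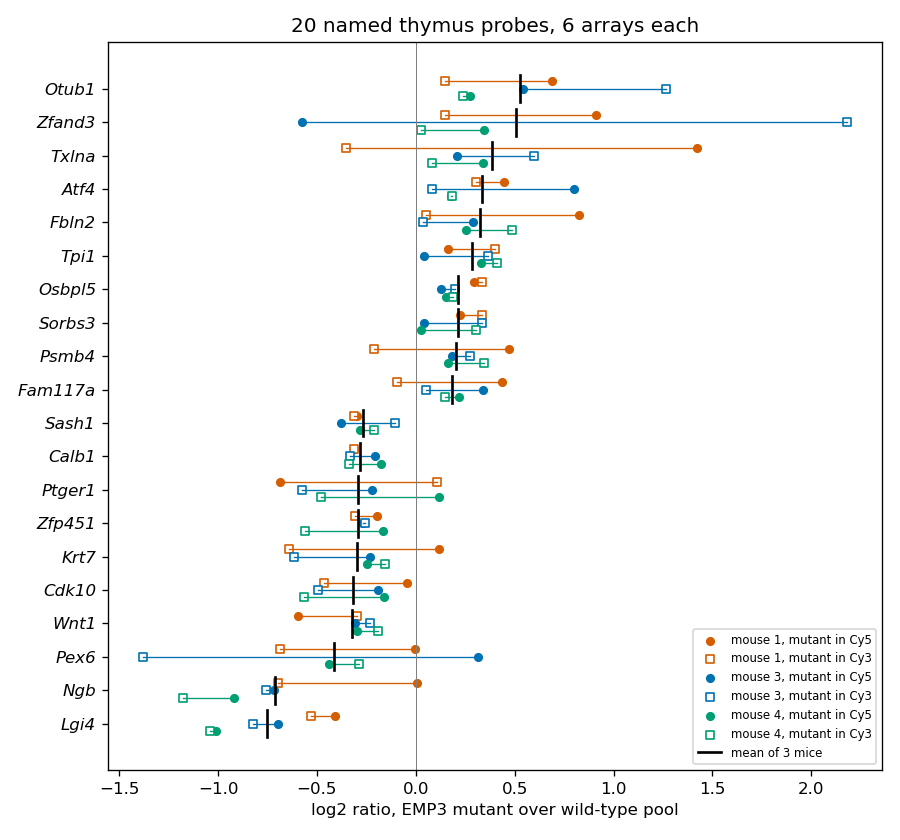
Log2 ratios of the 20 named probes with the smallest p in each direction on the 6 thymus arrays; filled circles are arrays with the mutant in Cy5, open squares with the mutant in Cy3, a line joins the arrays of a mouse, and the black bar is the mean of 3 mice. Lgi4 and Ngb lie lowest, at means of -0.75 and -0.71, and the arrays of a mouse lie far apart for Zfand3, Pex6 and Txlna.

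The other probes below 0 had means between -0.41 and -0.27. Wnt1, the founding Wnt ligand gene, was at -0.60 and -0.30 in mouse 1, -0.31 and -0.23 in mouse 3 and -0.30 and -0.19 in mouse 4, a mean of -0.32 ± 0.11 (SD, n = 3). Sash1, which encodes a signalling scaffold, was at -0.30 and -0.31 in mouse 1, -0.38 and -0.11 in mouse 3, and -0.28 and -0.21 in mouse 4, a mean of -0.27 ± 0.04 (SD, n = 3). Both were below 0 on all 6 arrays with overlapping mice. Calb1, the calcium buffer calbindin, was at -0.31 on both arrays of mouse 1, -0.21 and -0.33 in mouse 3, and -0.18 and -0.34 in mouse 4. Its mean of -0.28 ± 0.03 (SD, n = 3) had a narrow spread, but its Cy5 value in mouse 1 was the stored ratio of exactly 1. Zfp451, a SUMO ligase gene, was at -0.29 ± 0.06 and the cyclin-dependent kinase gene Cdk10 at -0.32 ± 0.06 (SD, n = 3), each below 0 on 6 of 6 arrays.

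For the last of these probes the sign differed between arrays. Pex6, an ATPase of peroxisomal protein import, ranged from -1.38 to 0.32 on the arrays of mouse 3 alone, and its mean of -0.41 ± 0.10 (SD, n = 3) hides that gap; the value of -1.38 lay at a small whole-number ratio. Krt7, a keratin of simple epithelia, was at 0.12 and -0.64 in mouse 1 and below 0 on the other 4 arrays, a mean of -0.30 ± 0.11 (SD, n = 3). The prostaglandin receptor gene Ptger1 was above 0 on the Cy3 array of mouse 1 and the Cy5 array of mouse 4, with a mean of -0.29 ± 0.11 (SD, n = 3). None of these 10 probes passed the test (limma adjusted p = 0.866 for each).

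The 10 probes above 0 had means between 0.18 and 0.53, and none passed (limma adjusted p = 0.866 for each). Atf4, the transcription factor of the integrated stress response, was at 0.45 and 0.30 in mouse 1, 0.80 and 0.08 in mouse 3, and 0.18 and 0.19 in mouse 4, a mean of 0.33 ± 0.13 (SD, n = 3). Osbpl5, a lipid transfer protein gene, was at 0.29 and 0.33 in mouse 1, 0.13 and 0.20 in mouse 3, and 0.15 and 0.19 in mouse 4, a mean of 0.22 ± 0.09 (SD, n = 3). Both were above 0 on all 6 arrays, with mouse 1 above mice 3 and 4 for Osbpl5 and a wide gap between the arrays of mouse 3 for Atf4. The glycolytic enzyme gene Tpi1 was at 0.16 and 0.40, 0.04 and 0.36, and 0.33 and 0.41 in mice 1, 3 and 4, a mean of 0.28 ± 0.08 (SD, n = 3). Sorbs3, which encodes the adhesion protein vinexin, was at 0.21 ± 0.06 and the matrix gene Fbln2 at 0.32 ± 0.14 (SD, n = 3), also with 6 of 6 arrays above 0.

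Of the other 5 probes above 0, those of Txlna, Psmb4, Fam117a and Zfand3 had arrays that differed in sign, and that of Otub1 was above 0 on all 6. The syntaxin-binding protein gene Txlna was at 1.42 and -0.35 on the arrays of mouse 1, the proteasome subunit gene Psmb4 at 0.47 and -0.21, and Fam117a at 0.44 and -0.10. Their means over 3 mice were 0.38 ± 0.16, 0.20 ± 0.07 and 0.18 ± 0.01 (SD, n = 3). Zfand3 spanned -0.57 to 2.18 on the arrays of mouse 3, with 2 of its 6 values at a small whole-number ratio. The deubiquitinase gene Otub1, with the highest mean of the 10 at 0.53 ± 0.34 (SD, n = 3), ranged from 0.15 to 1.26 over the arrays and had 3 of its 6 values at such a ratio. Of the 25 probes beyond 0.5 in size, 18 had at least 1 such value, 15 had 1 sign in the 3 mice and 4 had 1 sign on all 6 arrays. Over all 20130 probes tested, 15326 had 0 such values and 407 had 1 sign on all 6 arrays. On gene means 2418 of 8834 genes had 1 sign in the 3 mice.

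The probes with 1 sign on all 6 arrays and the largest value on the array where it was smallest were chosen without the test. There were 16 of them, and 7 are among the 20 above. Prkaca, the catalytic subunit of protein kinase A, lay between 0.11 and 0.28 on the 6 arrays, with a mean of 0.18 ± 0.08 (SD, n = 3). The endothelin receptor gene Ednrb lay between 0.09 and 0.28, with a mean of 0.17 ± 0.01 (SD, n = 3), and Cdc42bpb, a kinase downstream of CDC42, between 0.08 and 0.20 with a mean of 0.11 ± 0.03 (SD, n = 3). Their 1 sign under both dyes was fixed by the choice and supports no change. Atxn7l1 was at 0.22 ± 0.12 and Haus1, a subunit of the spindle complex augmin, at 0.13 ± 0.05 (SD, n = 3), and both values of Haus1 in mouse 1 lay at a small whole-number ratio. Below 0, the fatty acid desaturase gene Scd2 lay between -0.32 and -0.17 with a mean of -0.21 ± 0.06, and the transcription factor gene Zeb2 between -0.23 and -0.12 with a mean of -0.16 ± 0.05 (SD, n = 3). Nrip3 and the corepressor gene Cdyl were at -0.62 ± 0.43 and -0.66 ± 0.62 (SD, n = 3), with single arrays at -1.82 and -2.23, and the Cy5 value of Cdyl in mouse 1 lay at a small whole-number ratio. None of the 16 passed the test (limma adjusted p = 0.866 for each).

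A second probe of the same gene seldom lay with the first. The other Atf4 probe was at -0.02, the other Txlna probe at 0.02, the other Psmb4 probe at 0.08, and the other Otub1 probes at 0.001 and 0.06. For Sash1 the other probes were at -0.04 and 0.10, for Scd2 at -0.002 and 0.08, and for Zfp451 at 0.002, -0.08, 0.12 and -0.07. Over 4414 pairs of probes of 1 gene that lay more than 400 IDs apart, Spearman's rho of the means was -0.03, as a description over pairs. Lgi4 and Ngb have 1 probe each.

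Values also moved with the probe ID, whose relation to the place on the array no source used here gives. The last 394 IDs, 20401 to 20794, had a median of -0.07 and 51 of their 379 tested probes at an unadjusted p under 0.05 by limma, against 4 to 24 in each of the other blocks of 400. Calb1, Zfp451 and Scd2 lie in this block. After a running median over 51 neighbouring IDs was removed from each array they were at -0.21, -0.22 and -0.15, and Lgi4 was at -0.73. Whether the position accounts for the rest of these values was not tested.

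Of the 660 genes placed in 25 lists 475 were tested, and 0 passed in either direction, as for all genes (0% called). The medians of the lists lay between -0.04 and 0.03, against 0.003 over all 8834 genes, of which 52.3% were above 0.

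The lists of the T cell lineage held genes on both sides of 0. Of 10 genes of cortical thymocytes 7 were above 0, with a median of 0.02. The coreceptor gene Cd8b1 was at 0.25, 0.02 and 0.04 in mice 1, 3 and 4, a mean of 0.10 ± 0.13 (SD, n = 3; 95% interval -0.05 to 0.25), and Mns1 was at -0.17, -0.12 and -0.01. Mouse 1 thus carried most of the Cd8b1 mean. Of 20 genes of T cells and receptor signalling 10 were above 0 and 10 below. The inhibitory coreceptor gene Cd5 was at -0.21, -0.15 and -0.23 (mean -0.20 ± 0.05, SD, n = 3), and the kinase gene Fyn at 0.19, 0.17 and 0.10 (mean 0.16 ± 0.05, SD, n = 3), both with 1 sign in the 3 mice and neither past the test (limma adjusted p = 0.869). With the Cy3 arrays read with the opposite sign Cd5 would be at 0.39. The receptor chains Cd3d, Cd3e, Cd3g and Cd247 lay between -0.06 and 0.04.

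Genes of early and late thymocyte stages also lay on both sides of 0. Of 14 genes of early thymocytes and Notch signalling 8 were above 0. Il7, the cytokine that thymic stroma supplies to early thymocytes, was at -0.12, -0.18 and -0.16 (mean -0.15 ± 0.03, SD, n = 3), and the receptor gene Notch1 at -0.13, -0.07 and -0.13 (mean -0.11 ± 0.03, SD, n = 3). Of 9 genes of mature thymocytes 4 were above 0, and S1pr1, the receptor for exit from the thymus, was at 0.02, -0.34 and -0.15. Il7r, the receptor of interleukin 7, was at -0.06 ± 0.06 (SD, n = 3). For all 53 genes of these 4 lists the 95% intervals lay within a 2-fold change, and for 52 of them within a 1.5-fold change. These intervals too leave out the spread between wild-type mice.

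Of 19 genes of thymic epithelium 10 were above 0, with a median of 0.01. Foxn1, the transcription factor that makes the thymic epithelium, was at 0.09, 0.12 and 0.04 in mice 1, 3 and 4, a mean of 0.09 ± 0.04 (SD, n = 3). Apart from Krt7, described above, the members lay between -0.07 and 0.09. Of 21 chemokine and cytokine genes of the thymus 11 were above 0, and Tgfb1 was at -0.11 ± 0.01 (SD, n = 3).

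The apoptosis list lay lowest, with a median of -0.04 and 3 of 23 genes above 0. Its median was 0.02 in mouse 1 and -0.06 and -0.05 in mice 3 and 4, so that the mice did not share a side. Bak1, a pore-forming effector of mitochondrial apoptosis, was at -0.07, -0.18 and -0.16 (mean -0.14 ± 0.06, SD, n = 3), and the caspase 8 regulator Cflar at -0.19, -0.08 and -0.09 (mean -0.12 ± 0.06, SD, n = 3). With the opposite sign of the Cy3 arrays 14 of the 23 would lie above 0, and Bak1 would be at 0.27. Neither gene passed the test (limma adjusted p = 0.869).

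Housekeeping and stress lists stayed near 0. In the proteasome list 22 of 33 genes were above 0 with a median of 0.02, led by Psmb4 at 0.14 ± 0.03 on the mean of its 2 probes and Psmd6 at 0.13 ± 0.09 (SD, n = 3). In the ribosome list 32 of 53 were above 0, with Rpl7 at -0.15 ± 0.11 and Rpl5 at 0.11 ± 0.07 (SD, n = 3). Respiratory chain genes had 19 of 44 above 0, among them Atp5e at 0.12 ± 0.05, while Ndufs8, a complex I subunit, was at -0.24 ± 0.07 (SD, n = 3). In the glutathione list 13 of 24 were above 0, and the glutathione peroxidase gene Gpx1 was at 0.66, 0.64 and 0.10 in mice 1, 3 and 4, high in the first and second of these and low in the last, a mean of 0.47 ± 0.32 (SD, n = 3; 95% interval 0.17 to 0.77; limma adjusted p = 0.869). Gstm1 was at 0.09 ± 0.02 (SD, n = 3). The cell cycle list had 12 of 32 above 0, with the replication helicase gene Mcm6 at 0.35, 0.14 and 0.02 and the cyclin gene Ccnb2 at 0.12, 0.05 and 0.08.

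Immune and signalling lists had 0 genes past the test. Antigen presentation had 5 of 15 genes above 0 and a median of -0.03, with mouse 1 at -0.12, mouse 3 at -0.02 and mouse 4 at 0.02. H2-Oa, a gene of class II peptide loading, was at -0.65 in mouse 1 and at -0.02 and -0.07 in mice 3 and 4, and Ctsd, a lysosomal protease, was at -0.07 ± 0.09 (SD, n = 3). Interferon response genes had 10 of 18 above 0, with Ifngr2 at -0.07 ± 0.07 and Rsad2 at 0.07 ± 0.09 (SD, n = 3). Glucocorticoid response genes had 5 of 10 above 0, with Per1 at -0.04 ± 0.04 and Dusp1 at -0.08 ± 0.19 (SD, n = 3). In the amino acid and ER stress list 8 of 15 were above 0, with Atf4 at 0.15 ± 0.06 on the mean of its probes and Ddit3 at 0.07 ± 0.09 (SD, n = 3). The list of P2X receptors and membrane partners, which includes tetraspanins, had 9 of 11 above 0 with a median of 0.01, where Cd82 was at 0.40 in mouse 1 and at -0.05 and 0.01 in mice 3 and 4 and P2rx1 was at 0.05 ± 0.05 (SD, n = 3).

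The 7 lists of other cell types that a thymus dissection could hold had medians between -0.02 and 0.03. Of 8 B cell genes 5 were above 0, and the kinase gene Blk was at 0.63, 0.16 and -0.04 in mice 1, 3 and 4, with Blnk at -0.07 ± 0.10 (SD, n = 3). Macrophage and dendritic cell genes had 4 of 12 above 0, with the complement gene C1qc at 0.10 ± 0.05 and the lysozyme gene Lyz2 at -0.05 ± 0.08 (SD, n = 3). Erythroid genes had 5 of 13 above 0, with Hba-a1 at -0.07 ± 0.06 and Alas2 at -0.36, -0.09 and 0.06. Adipocyte genes had 10 of 16 above 0, with Ucp1 at 0.11 ± 0.07 and Fabp4 at 0.10 ± 0.09 (SD, n = 3). Muscle genes had 8 of 18 above 0, with Tnnt2 at -0.11 ± 0.03 and Ryr1 at 0.11 ± 0.11 (SD, n = 3). Stroma and matrix genes had 11 of 27 above 0, with the proteoglycan gene Bgn at 0.24, 0.83 and -0.05, and Tek at -0.09 ± 0.07 (SD, n = 3). Glia and nerve genes had 4 of 10 above 0 and a median of -0.01, and the members with the smallest p were Lgi4, Calb1 and Ngb, so the low values of Lgi4 and Ngb were not shared by the list.

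**Figure D4:**
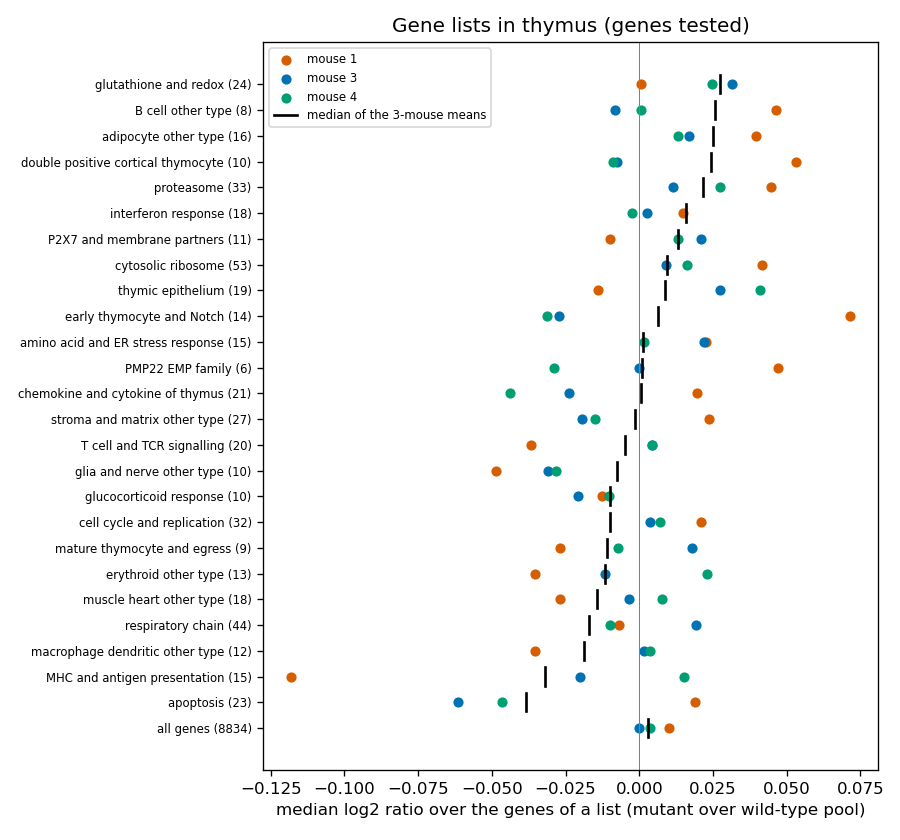
Median log2 ratio of the genes of each list in mice 1, 3 and 4 (points) and over the 3-mouse means (black bars), with the number of genes tested in brackets and all 8834 genes in the last line. List medians over the 3-mouse means lie between -0.04 and 0.03, and mouse 1 is farthest from 0 for antigen presentation, at -0.12.

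In spleen, measured on 8 other arrays of mutant mice 1 to 4, 5272 of 19425 probes passed the threshold when fitted alone (27.1% called). With 3 mice, the number tested in thymus, the spleen count was 4867 without mouse 1, 2351 without mouse 2, 3859 without mouse 3 and 2366 without mouse 4. The SD of the means over probes was 0.30 in spleen of 4 mice and 0.08 in thymus of 3. Tested directly, 2840 of 19317 probes differed between thymus and spleen (14.7% called), 1646 higher in thymus and 1194 lower. With the mouse as a block, over mice 1, 3 and 4, 601 passed, 491 higher in thymus and 110 lower. The count was 2260 without mouse 1, 10 without mouse 3 and 0 without mouse 4, where fewer thymus mice also enter the test. It was 367 when the variance of the wild-type pools was added, 4 against a 1.2-fold change and 0 with the sign of the Cy3 arrays turned.

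At the 6 named probes with the smallest p for this difference thymus lay near 0 and spleen did not. Usp25, a deubiquitinase gene, was at 0.14, 0.10 and 0.06 in thymus of mice 1, 3 and 4 and between -1.07 and -0.90 in spleen of mice 1 to 4, a difference of 1.07 with a standard error of 0.08. Selenop, the selenium carrier of plasma, was at 0.15, 0.003 and 0.01 in thymus and at 1.49, 1.52, 1.22 and 1.30 in spleen, a difference of -1.33 with a standard error of 0.10. For both the tissues were far from overlapping. Arpc5l, an Arp2/3 subunit gene, was at 0.13 ± 0.09 (SD, n = 3) in thymus and 1.33 ± 0.14 (SD, n = 4) in spleen, and Tbl2 at 0.004 ± 0.05 and 0.77 ± 0.06. Zbtb5 was at 0.09 ± 0.08 in thymus and -0.69 ± 0.02 in spleen, and Zfand3, here at another probe than above, at 0.10 ± 0.11 and -0.79 ± 0.08. Each of these differences had a limma adjusted p of 0.00392, and of 0.0449 with the mouse as a block. Without mouse 4 the adjusted p was 0.0908 for all 6, and without mouse 3 it was 0.0584 for Zbtb5, Tbl2 and Zfand3. None of the 6 thymus means passed its own test. At other probes of Arpc5l and Tbl2 the difference was small and did not pass the threshold. The other Arpc5l probes were at 0.01, -0.01 and 0.02 in thymus and at 0.10, -0.10 and -0.08 in spleen (limma adjusted p of the difference 0.600, 0.601 and 0.514). The other Tbl2 probes were at 0.05 and -0.02 in thymus and at -0.11 and -0.05 in spleen (limma adjusted p of the difference 0.322 and 0.851).

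**Figure D5:**
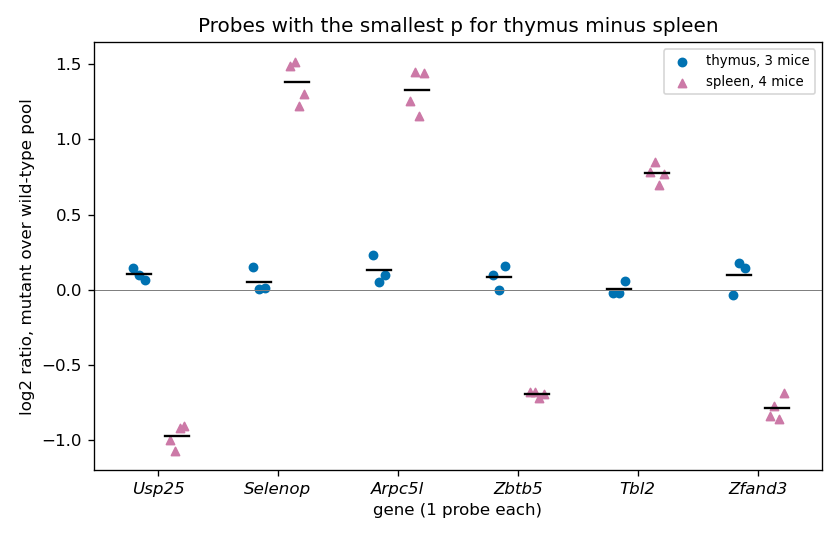
Log2 ratio of mutant over wild-type pool for the 6 named probes with the smallest p for thymus minus spleen; circles are the means of the dye-swapped arrays of thymus mice 1, 3 and 4, triangles those of spleen mice 1 to 4, and bars the group means. Thymus means lie between 0.004 and 0.13 and spleen means between -0.97 and 1.38.

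Several probes named in thymus differed from spleen as well, with the smallest adjusted p at Sash1 and Prkaca. Of the 10 named probes below 0 with the smallest p in thymus, 9 had a spleen mean, and all 9 were below 0 there. Of the 10 above 0, 8 had a spleen mean, and 4 were above 0 there. Over all 19425 probes tested in spleen 57.3% of the means were above 0. Thymus and spleen means correlated at 0.29 (Pearson) over 19317 probes, so a shared sign is not particular to the named probes. The tissues are not independent evidence of a direction, as said above. Sash1 at probe 18095 was at -0.27 in thymus and at -1.13 ± 0.22 (SD, n = 4) in spleen, and Prkaca at 0.18 in thymus and at -0.41 ± 0.18 (SD, n = 4) in spleen. The difference was 0.86 with a standard error of 0.12 for Sash1 (limma adjusted p = 0.00492) and 0.59 with a standard error of 0.11 for Prkaca (limma adjusted p = 0.0107). With the mouse as a block the limma adjusted p was 0.0449 for Sash1 and 0.0547 for Prkaca. Without mouse 3 it was 0.0584 and 0.0671, and without mouse 4 it was 0.0908 and 0.101. At these probes Sash1 was below 0 in both organs and nearer to 0 in thymus, while Prkaca lay on opposite sides of 0. The other Sash1 probes, 14551 and 17236, were above 0 in spleen, at 0.19 and 0.30, and thymus minus spleen was -0.23 and -0.20 there, opposite in direction to probe 18095 and not past the threshold (limma adjusted p = 0.366 and 0.233). Psmb4 at probe 7064 was at 0.20 in thymus and -0.19 in spleen, and Cdc42bpb at 0.11 and 0.43 (limma adjusted p of the difference 0.0137 and 0.0341). The other probe of Psmb4 was at 0.08 in thymus and 0.02 in spleen, and the other of Cdc42bpb at -0.07 and -0.12. Neither of these differences passed (limma adjusted p = 0.675 and 0.751). Zfp451, Scd2 and Calb1 at their named probes were at -0.29, -0.21 and -0.28 in thymus. In spleen they were at -0.81, -0.54 and -0.60 (limma adjusted p of the difference 0.0164, 0.0266 and 0.0322). At other probes of Zfp451 and Scd2 differences past the threshold lay in both directions.

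The mice differed in the spread of their values, both in the mean of the dye-swapped arrays and in the part that turned with the dye. The SD over probes of the mouse mean was 0.20 in mouse 1, 0.14 in mouse 3 and 0.13 in mouse 4. With the Cy3 array read with the opposite sign it was 0.31, 0.20 and 0.16, larger in each mouse. The means of mice 3 and 4 correlated at 0.14 over probes, and those of mouse 1 at 0.001 with mouse 3 and at -0.04 with mouse 4. Beyond 0.5 in size on both arrays of a mouse, 78 probes of mouse 1 had 1 sign and 627 had opposite signs. In mouse 3 the counts were 31 and 138, and in mouse 4 they were 35 and 102. In each mouse probes of opposite sign were the larger number.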

How the data were processed

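The labels' protocols state that 20 µg of RNA of each mutant organ were reverse transcribed, labelled indirectly with Cy3 or Cy5 and hybridised with wild-type pool cDNA in the other dye. The scanner, the normalization and the genome build: not given in the sources used here. As deposited, the values are log2 ratios with array medians near 0, and the files hold no intensities, so that the signal behind each ratio is unknown. The number of mice and arrays limits the precision, as do the 3 decimals to which the ratios were stored. Values above 10 in size, which repeat 1 constant per array, were set to missing.

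The mean of the dye-swapped arrays of a mouse was 1 replicate, a probe needed a value on all 6 arrays, and the mean of 3 mice was tested against 0 in thymus alone with limma 3.58.1 in R 4.3.3 (lmFit and eBayes, two-sided, Benjamini-Hochberg adjustment over all probes, threshold 0.05). The pool enters only as the denominator, so the spread between wild-type mice is not in the test. Gene values are means over the probes of a symbol. Thymus minus spleen was fitted with 1 mean per tissue. Thymus and spleen are paired by mouse number, as each animal gave both organs, and the deviations of a mouse from the tissue means correlated at -0.06, -0.002 and -0.07 for mice 1, 3 and 4. The fits were tested on simulated data. The simulated noise was independent between probes and held no dye effect or position trend, so that test does not show how the fits behave with either.

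The platform annotation gave 1 symbol to 12771 of 20794 probes and none to 8023, and the RefSeq table of assembly GRCm38.p6 was used for names only. The probes named were Emp3 and its relatives on the array, the 10 smallest p in each direction with 1 sign in all mice, the 8 in each direction with 1 sign on 6 arrays and the largest smallest value, the 6 in each direction with the smallest p after the sign of the mutant-Cy3 arrays was turned, the 2 smallest p of each gene list, and the 6 smallest p for thymus minus spleen. Others fall outside these rules, among them the Cd3 chains, Cd247 and the other differences from spleen. They were chosen with their values known and are not marked where they appear. The members and the lists were chosen with earlier results of these data known. Alternatives turned signs, changed centring, removed position trends, kept placeholders, missing values or mouse 2, changed the variance or threshold, added a dye term, fitted the dyes apart or left out mice. The removal of values at small whole-number ratios and the use of mouse 2 by 1 array were chosen after seeing the data.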

Additional observations from a re-analysis of the deposited data

Results flagged for a closer look

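The Cy5 array of mouse 1 had an SD over probes of 0.43, above the other 7 thymus arrays, which lay between 0.23 and 0.32. Those 7 include the arrays of mouse 2, which were left out of the comparison, and the array was flagged with them included. Chance sets about 1 in 20 groups apart in this way in a single check. More than 1 such check was made, so at least 1 flag by chance is likelier than that. The Cy5 array of mouse 1 also had the largest share of values at small whole-number ratios, 11.3%, and the part of these in its spread was not tested. The count of 2840 probes that differed between thymus and spleen came from a test of the difference itself, and was 10 without mouse 3 and 0 without mouse 4. Among them were Usp25 (1.07), Zfand3 at probe 13008 (0.89) and Zbtb5 (0.78), higher in thymus, and Selenop (-1.33), Arpc5l (-1.20) and Tbl2 (-0.77), lower in thymus.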

How the results depend on the processing

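In thymus 0 probes and 0 genes passed under every alternative run except without mouse 1 (0 to 1 probes and 0 genes over the 3 mice left out in turn). The smallest limma adjusted p over the probes lay between 0.0434 (without mouse 1) and 1 (1.2-fold test). Probes with 1 sign on all arrays numbered 1310 to 2499 with a mouse left out, where only 4 arrays must agree, and 317 to 372 under the other alternatives. The 317 were left after the values at small whole-number ratios were removed, out of 15326 probes (2.07%), against 407 of 20130 (2.02%) with them. For thymus minus spleen, 601 probes passed with the mouse as a replicate block, 0 with the sign of the mutant-Cy3 arrays turned, 367 with pool variance added, 4 in the 1.2-fold test and 0 to 2260 with a mouse left out; the causes were not tested, other than fewer samples in the block and the left-out fits. The block also ended the call of Prkaca against spleen (limma adjusted p = 0.0547). The block changed no call for Sash1, Usp25, Selenop, Arpc5l, Zbtb5, Tbl2, Zfand3, Lgi4 or Ngb at the probes named for them. For Psmb4, Zfp451, Scd2, Calb1 and Cdc42bpb, which passed without the block, values with it are not given here.

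With the sign of the mutant-Cy3 arrays turned, these probes changed sign: Pmp22 0.11, Emp3 0.027 and -0.038, Tpi1 -0.11, Sorbs3 -0.11, Zfand3 -0.28, Otub1 -0.025, Osbpl5 -0.025, Prkaca -0.011, Ednrb -0.027, Haus1 -0.023, Cdc42bpb -0.0195, Pex6 0.37, Lgi4 0.046, Cdk10 0.19, Calb1 0.047, Zfp451 0.083, Ngb 0.17, Krt7 0.18, Ptger1 0.027, Cdyl 0.28, Scd2 0.018 and Zeb2 0.015. So did the gene means Cd5 0.39, S1pr1 0.24, Il7r 0.14, Il7 0.0905, Krt7 0.18, Blk -0.21, C1qc -0.018, Lyz2 0.055, Ucp1 -0.013, Fabp4 -0.0695, Tnnt2 0.040, Bgn -0.11, Lgi4 0.046, Calb1 0.047, Bak1 0.27, Cflar 0.11, Ccnb2 -0.12, Psmb4 -0.0425, Rsad2 -0.029, Tgfb1 0.088, Per1 0.098, Dusp1 0.037, Ddit3 -0.077, Gstm1 -0.11 and Ndufs8 0.13, and the differences from spleen of Selenop (0.054) and Arpc5l (0.097). With a mouse left out in turn, Emp3 at probe 4348 ranged from -0.0755 to 0.012, Emp2 from -0.049 to 0.14 and from -0.16 to 0.0515 at its probes, Lim2 from -0.061 to 0.0885, Dusp1 from -0.15 to 0.0335 and Cd82 from -0.017 to 0.21, each changing sign without mouse 1, and Pmp22 from -0.038 to 0.011, changing sign without mouse 4. Pmp22 was at 0.00033 with the running median removed, and Lyz2 (0.0205) and Hba-a1 (0.035) changed sign without the values at small whole-number ratios. The turned sign is the alternative that the stored ratios go against. No intensities were used here, so signal over background limits the values to an unknown degree, and mouse 1 has the most values at small whole-number ratios.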
